A study of Mus musculus with 24 samples.

Results

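The miR-34 and miR-449 family is a group of mouse microRNAs (miRNAs, short RNAs that pair with messenger RNAs and lower their output), most of which share a seed, the bases 2 to 8 that direct pairing with targets. Its 7 members on the Agilent mouse miRNA array were found by name among the miRNA spots: mmu-miR-34a, mmu-miR-34b-3p, mmu-miR-34b-5p, mmu-miR-34c, mmu-miR-449a, mmu-miR-449b and mmu-miR-449c, written here without the species prefix of the array. They made up 7 of the 566 mouse miRNAs and 140 of the 11340 mouse spots on each array, 20 spots per member. The study compared miRNA microarray technologies with a pair of RNA references made from purchased mouse total RNA. Reference 1 was an equal mix of testicle, ovary and whole embryos of 10 to 12 days, and Reference 2 was an equal mix of liver, heart and lung. No strain, age of the adult animals or treatment was given in the sources used here. Arrays were hybridized in one color, all on a single slide, and the 4 Agilent samples described here are 2 arrays of each reference. The authors chose them at random and report that an array with a very poor signal did not pass quality control.

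The genes of the family are known from the male germline, ciliated cells and the p53 response. Transcripts of the Mir34b and Mir34c pair and of the Mir449 cluster are abundant in male germ cells from meiosis onward and in cells that carry many motile cilia, such as those of the airways and the oviduct. Mir34a is a direct target gene of the tumor suppressor p53, is more widely expressed, and its product lowers cell cycle genes. The Mir449 cluster lies inside Cdc20b, a gene of multiciliated cells. Reference 1 therefore held a tissue rich in germ cells (testicle), and Reference 2 held one with multiciliated epithelium (lung).

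Mature sequences show what the members have in common and where they part. RefSeq (GRCm38.p6) held entries for 5 of the 7 members, with array names that carry no arm matched to the 5p entry, and miR-34c and miR-449b were not matched. Capitals mark bases 2 to 8, and each sequence is written 5′ to 3′.
miR-34a: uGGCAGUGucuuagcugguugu
miR-34b-5p: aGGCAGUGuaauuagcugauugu
miR-449a: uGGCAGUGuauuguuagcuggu
miR-449c: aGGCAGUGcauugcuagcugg
miR-34b-3p: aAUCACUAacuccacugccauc
miR-34c*: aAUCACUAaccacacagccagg
The first 4 share the seed GGCAGUG, which stood in 4 of the 1679 mature mouse miRNAs of the table (0.238%), all of them members. Since miR-34c and miR-449b had no entry in the table, this count leaves them out and does not show whether they carry the seed. miR-34b-3p comes from the other arm of the Mir34b hairpin and carries a different seed, AUCACUA, which it shared with miR-34c* alone in that table. miR-34c*, listed by RefSeq as miR-34c-3p, is the partner arm of miR-34c and was not counted as a member. From the 5′ end, miR-449a and miR-449c were identical at 18 of 21 bases, and miR-34a and miR-449a at 15 of 22. miR-34a and miR-34b-5p were identical at 11 of 22 positions counted without gaps, and 4 single-base edits turn one into the other.

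The hairpin of Mir34b is shown because both of its arms are members and gave very different readings. It lies at chr9:51103562-51103645 on the minus strand, and capitals mark the mature 5p arm and then the mature 3p arm.
Mir34b hairpin: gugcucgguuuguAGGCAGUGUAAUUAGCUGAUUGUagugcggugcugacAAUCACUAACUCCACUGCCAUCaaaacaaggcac
Mir34c lies on the same chromosome at 51103034 to 51103110, so that 612 bases hold both hairpins, with 451 bases between them. Both lie within the spans that RefSeq gives for the protein-coding genes Hoatz and Btg4. Mir449c (chromosome 13, 113035983 to 113036091), Mir449b (113037419 to 113037498) and Mir449a (113037534 to 113037624) occupy 1642 bases within the span of Cdc20b, with 35 bases between Mir449b and Mir449a. Mir34a stands alone on chromosome 4 (150068454 to 150068555), outside any protein-coding gene span of the table.

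The replicates of a reference were aliquots of 1 pool, so the spread between them, and each p-value built on it, is technical. Replicate arrays correlated at r = 0.9996 for Reference 1 and 0.9993 for Reference 2 over the normalized log2 values of all mouse miRNAs. The scanner software placed 35.1% and 36.3% of spots well above background on the Reference 1 arrays, and 25.8% and 25.2% on the Reference 2 arrays. The labelled tissues were checked by lists of tissue miRNAs: all 6 of heart muscle, the liver miRNA miR-122 and all 3 erythroid miRNAs were lower in Reference 1, while 22 of 29 X-linked testis miRNAs were higher and 1 was lower. Both endothelial and all 5 epithelial miR-200 family miRNAs were lower in Reference 1, though the endothelial miR-126-5p was not well above background in either reference. Of all mouse miRNAs, 28.3% were lower and 29.9% higher in Reference 1. Since each array held a pool of tissues, a higher signal from more cells of a type and from more miRNA per cell cannot be told apart, and the tissue within a pool that gave a signal was not measured.

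In all, 5 members stood well above background in at least 1 reference, and those 5 members were higher in Reference 1 (limma on normalized log2 signal, adjusted p under 0.05 over all mouse miRNAs). The other 2 did not pass the test and 0 were lower. Over the whole array the test called 29.9% of the 566 mouse miRNAs higher and 28.3% lower in Reference 1. With only the 261 mouse miRNAs well above background tested, 129 were higher and 110 lower, and the 5 members were again higher. Of these 5, miR-34b-3p was well above background in Reference 1 only. The median log2 difference was 0.72 over the 7 members and -0.01 over all mouse miRNAs. The arrays of the references did not overlap for any of the 7 members, a property that 77.0% of all mouse miRNAs had. Among the 566 differences ordered from the highest, miR-449a stood at rank 5, miR-34c at rank 7, miR-34b-5p at rank 12 and miR-34a at rank 42. miR-34b-3p stood at rank 135, miR-449c at rank 213 and miR-449b at rank 340.

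**Figure D1:**
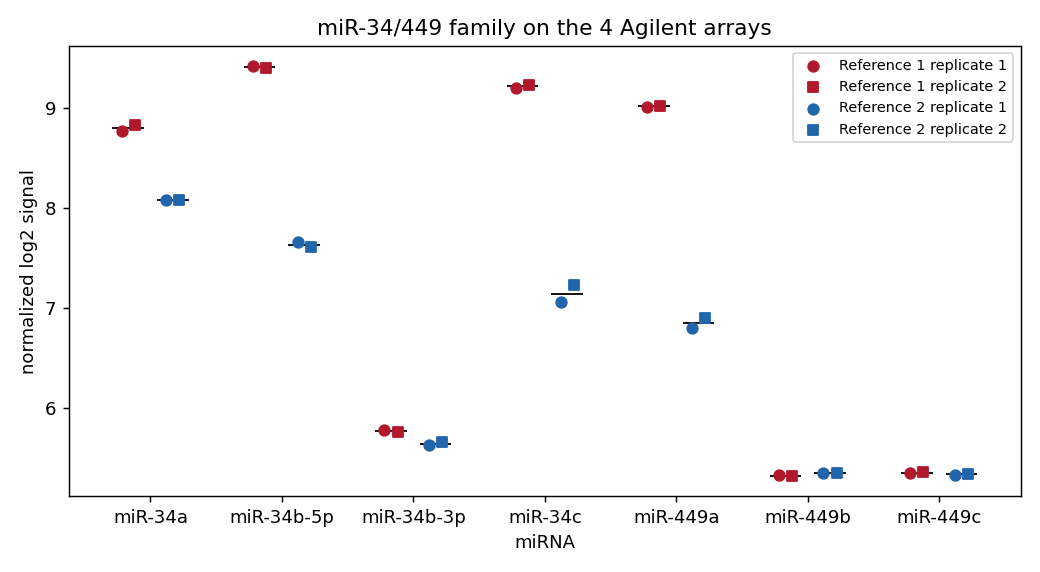
Normalized log2 signal (vertical axis) of each family member on the 4 arrays, with Reference 1 in red, Reference 2 in blue, circles for replicate 1, squares for replicate 2 and a black line at each mean. miR-34b-5p, miR-34c and miR-449a sit at 9.01 or above in Reference 1 and at 7.65 or below in Reference 2, while miR-449b and miR-449c sit between 5.32 and 5.35 on all 4 arrays.

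mmu-miR-34b-5p, the arm of Mir34b with the seed GGCAGUG, had normalized log2 signals of 9.41 and 9.40 on the Reference 1 arrays and 7.65 and 7.61 on the Reference 2 arrays. Both Reference 1 arrays lay far above both Reference 2 arrays, and the replicates of a reference were nearly equal. The log2 difference was 1.78 (SE 0.0467, n = 2 arrays per reference, limma adjusted p = 4.75e-24), a 3.42-fold higher signal. The median intensity of its spots before normalization was 796 and 794 in Reference 1 against 191 and 185 in Reference 2. All 20 of its spots were well above background on each of the 4 arrays, so Reference 2 held a measurable amount as well.

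mmu-miR-34b-3p, from the opposite arm of the same hairpin, gave normalized log2 signals of 5.78 and 5.76 in Reference 1 and 5.63 and 5.65 in Reference 2. The Reference 1 arrays were slightly higher and did not overlap with the others. The log2 difference of 0.13 (SE 0.0290, limma adjusted p = 2.58e-04) passed the test. In Reference 1, 10 and 14 of its 20 spots were well above background, and in Reference 2 none of its spots was on either array. Only the brighter of its probes counted as well above background in Reference 1, and that probe had the smaller log2 difference, 0.09. Its Reference 1 mean, 5.77, lay below a floor of 5.92, so no fold is given. That floor is the mean over the Reference 2 arrays of the lowest single-probe signal that was well above background there. The median intensities were 60.3 and 55.5 against 45.0 and 45.5, where the negative control spots had medians of 44 to 49.

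mmu-miR-34c, the neighbor of Mir34b and a member with known roles in sperm cells, had normalized log2 signals of 9.19 and 9.23 in Reference 1. In Reference 2 the values were 7.06 and 7.22. Its Reference 2 arrays differed from each other by more than those of any other member, yet both lay well under the Reference 1 arrays. The log2 difference was 2.07 (SE 0.0512, adjusted p = 1.04e-24), or 4.20-fold. On the second Reference 2 array the highest spot reached an intensity of 739 where the median of the 20 spots was 151, while on the first the highest spot was 217 and the median 131. Leaving out either Reference 2 array put the log2 difference at 1.99 or 2.16.

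Its partner arm, miR-34c*, was the only partner arm of the family's hairpins found on the array under the names searched (1 of 5). Its normalized log2 signals were 5.81 and 5.94 in Reference 1 and 5.61 and 5.70 in Reference 2. The references did not overlap, and the log2 difference was 0.22 (SE 0.0357, adjusted p = 2.91e-06). As with miR-34b-3p, the signal was well above background only in Reference 1. Each of the 3p arms of the Mir34b and Mir34c hairpins was thus near background in a pool where the array's other arm was bright. Signals of different probes are not on a common scale, so the amounts of the arms were not compared.

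mmu-miR-449a, the member of the Mir449 cluster that was detected, had normalized log2 signals of 9.01 and 9.02 in Reference 1 and 6.80 and 6.89 in Reference 2. The references were widely separated, and the Reference 1 arrays were almost identical. Its log2 difference of 2.17 (SE 0.0470, adjusted p = 4.61e-26), or 4.49-fold, was the highest of the 7 members. The median spot intensity was 602 and 608 in Reference 1 and 98.8 and 107 in Reference 2, and all 20 spots stayed well above background in both references.

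mmu-miR-449b and mmu-miR-449c, whose genes lie beside Mir449a, did not stand well above background in either reference. miR-449b gave normalized log2 signals of 5.32 and 5.32 in Reference 1 and 5.34 and 5.35 in Reference 2. miR-449c gave 5.34 and 5.35 in Reference 1 and 5.33 and 5.34 in Reference 2. These values differed in the second decimal, with miR-449b a little lower and miR-449c a little higher in Reference 1. The log2 differences were -0.02 (95% interval -0.06 to 0.01, adjusted p = 0.279) for miR-449b and 0.01 (95% interval -0.02 to 0.05, adjusted p = 0.556) for miR-449c. The highest of their spots on any array read 46 in intensity for miR-449b and 45 for miR-449c, below the lowest of the arrays' present thresholds, 48.7. A difference between the references was therefore not detectable with these probes. Centering each array on its median instead gave -0.10 for miR-449b and -0.06 for miR-449c, both past the test, so no direction is given for either.

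mmu-miR-34a, the p53 target with its own gene, had normalized log2 signals of 8.77 and 8.82 in Reference 1 and 8.07 and 8.08 in Reference 2. The references were clearly apart, but by less than for the other bright members. The log2 difference was 0.72 (SE 0.0468, adjusted p = 2.38e-14), or 1.65-fold. The median intensities were 484 and 507 in Reference 1 and 247 and 253 in Reference 2, with all 20 spots well above background on every array. With spots that the scanner software called outliers left out, the log2 difference was 0.67 and no longer passed the test (adjusted p = 0.0557). It was 1.52 with the processed signal scaled over all probes, a scaling that put the median difference of all miRNAs tested at 0.90.

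**Figure D2:**
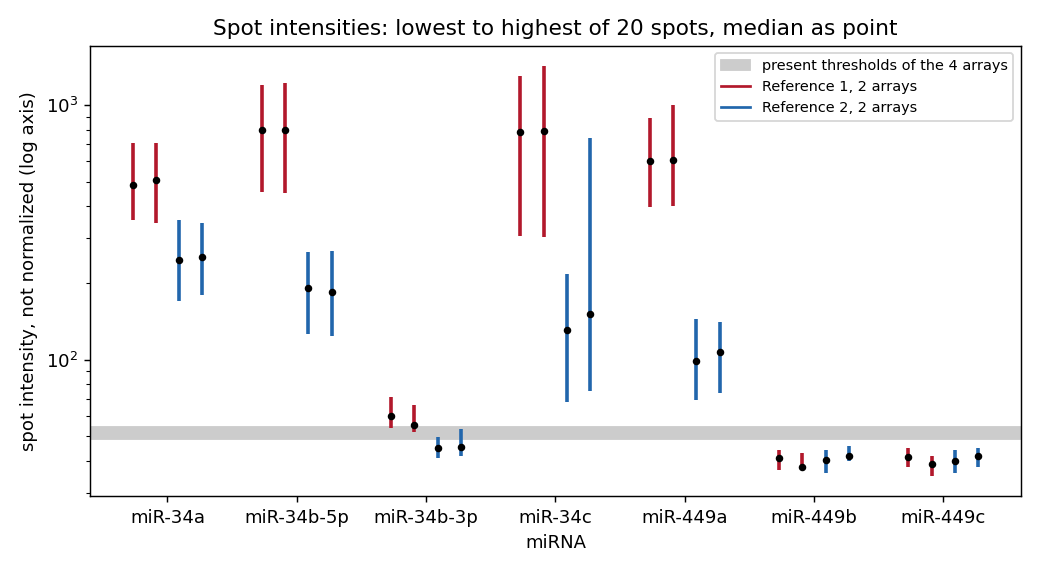
Spot intensity before normalization on a log axis, from the lowest to the highest of the 20 spots of each member (vertical line) with the median as a point, for 2 Reference 1 arrays (red) and 2 Reference 2 arrays (blue), and the present thresholds of the 4 arrays, 48.7 to 54.3, as a gray band. All spots of miR-34a, miR-34b-5p, miR-34c and miR-449a lie above the band in both references, and those of miR-449b and miR-449c lie below it.

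The present call of the study's methods asks that the spots of a miRNA reach a threshold set on the negative control spots, 5% trimmed at each end, at the mean plus 3 SD. By this rule miR-34a, miR-34b-5p, miR-34c and miR-449a were present on all 4 arrays, and miR-34b-3p was present on both Reference 1 arrays and on neither Reference 2 array. miR-449b and miR-449c were present on none. The partner arm miR-34c* was present on the second Reference 1 array only. Across the array, 181 and 185 mouse miRNAs were present on the Reference 1 arrays and 128 on each Reference 2 array.

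The total gene signal of the scanner software, which has background subtracted, set the references farther apart. For miR-34c it was 944 and 1027 in Reference 1 and 121 and 138 in Reference 2. For miR-449a it was 765 and 813 against 72.8 and 75.6, and for miR-34b-5p it was 983 and 995 against 191 and 189. For these 3 members no Reference 2 array came near a Reference 1 array. For miR-34a the signal was 609 and 624 against 274 and 276. After the arrays were scaled to one another, the log2 difference was 2.60 for miR-34c, 3.08 for miR-449a, 2.05 for miR-34b-5p and 0.84 for miR-34a. These values are smaller than the unscaled signals above give, and each was larger than the log2 difference given earlier for that member. For miR-34a the median signal without subtraction or normalization gave a larger value, 0.99. miR-34b-3p read 20.6 and 21.3 in Reference 1 and 0.971 and 0.125 in Reference 2, where the software did not call it detected.

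**Figure D3:**
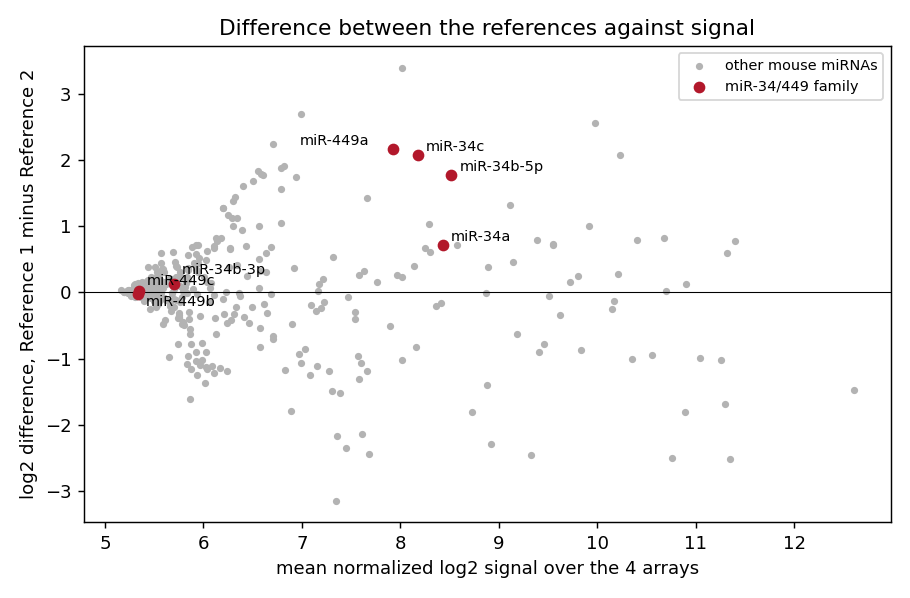
Log2 difference, Reference 1 minus Reference 2 (vertical axis), against the mean normalized log2 signal over the 4 arrays (horizontal axis) for the 566 mouse miRNAs, each a point, with the family members in red. miR-449a, miR-34c, miR-34b-5p and miR-34a lie at 2.17, 2.07, 1.78 and 0.72, and the other 3 members lie at low signal with differences from -0.02 to 0.13.

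The 4 bright members did not differ between the references by the same amount. With miR-34a subtracted array by array, the log2 difference was larger by 1.06 for miR-34b-5p (95% interval 0.93 to 1.18), by 1.35 for miR-34c (1.23 to 1.48) and by 1.45 for miR-449a (1.32 to 1.57). In each of these comparisons the Reference 1 arrays lay on one side and the Reference 2 arrays on the other. With miR-34c subtracted instead, miR-34b-5p was smaller by a log2 value of -0.30 (95% interval -0.52 to -0.08, adjusted p = 0.00878). miR-449a differed from miR-34c by 0.09 (95% interval -0.13 to 0.32, adjusted p = 0.412), an interval that allows a small difference either way. The size of this gap depended on the processing: miR-449a lay above miR-34c by 0.48 with the total gene signal, by 0.39 with the processed signal and by 0.38 with outlier-flagged spots left out, all beyond that interval, and none of these gaps was tested. In all, 5 such pairs were compared among bright members, with p-values adjusted over the 565 other mouse miRNAs. In these fits 96.1% of the other miRNAs differed from miR-34a and 99.1% from miR-34c, whose own log2 differences were well above the median of all mouse miRNAs. The values of the subtracted member, noise included, enter every row of such a fit. The width of an interval depended on which member was subtracted. For miR-34c with miR-34a subtracted, the SE was 0.063. For miR-34a with miR-34c subtracted, the value was -1.35 with an SE of 0.113 (95% interval -1.57 to -1.13).

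Each member was read by several probes, DNA strands on the array that are complementary to the miRNA over different lengths, so that probes of a member test the same molecule and are not replicates. Of the 18 member probes, 10 were higher in Reference 1 and 0 were lower, where 21.3% of all 1672 mouse probes were higher and 19.6% lower. These were both probes of each of miR-34a, miR-34b-5p, miR-34b-3p, miR-34c and miR-449a. None of the 8 probes of miR-449b and miR-449c passed the test.

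Within each bright member the brighter probe had the larger log2 difference. For miR-34c the dimmer probe gave 1.65 and the brighter 2.50. For miR-34b-5p the values were 1.43 and 2.096, for miR-449a 2.07 and 2.48, and for miR-34a 0.61 and 0.88. The gap between the probes of miR-34c was the widest of these. For miR-34b-3p, whose probes were both near background, the dimmer probe gave 0.19 and the brighter 0.09.

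With the scanner's processed signal, from which background has been subtracted, the order of the probes turned for 3 of the 4 bright members. This comparison was added after the data were seen. The dimmer and brighter probes then gave 2.90 and 2.70 for miR-34c, 3.48 and 3.10 for miR-449a and 1.01 and 0.94 for miR-34a, and for miR-34b-5p they gave 2.107 and 2.204. All 8 of these probe values were above those without subtraction, although that scaling also raised the median difference of all miRNAs tested by it to 0.33. The probes of miR-34b-3p gave 3.16 (SE 0.375) and 2.47 (SE 0.278), with errors several times those of the bright members.

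**Figure D4:**
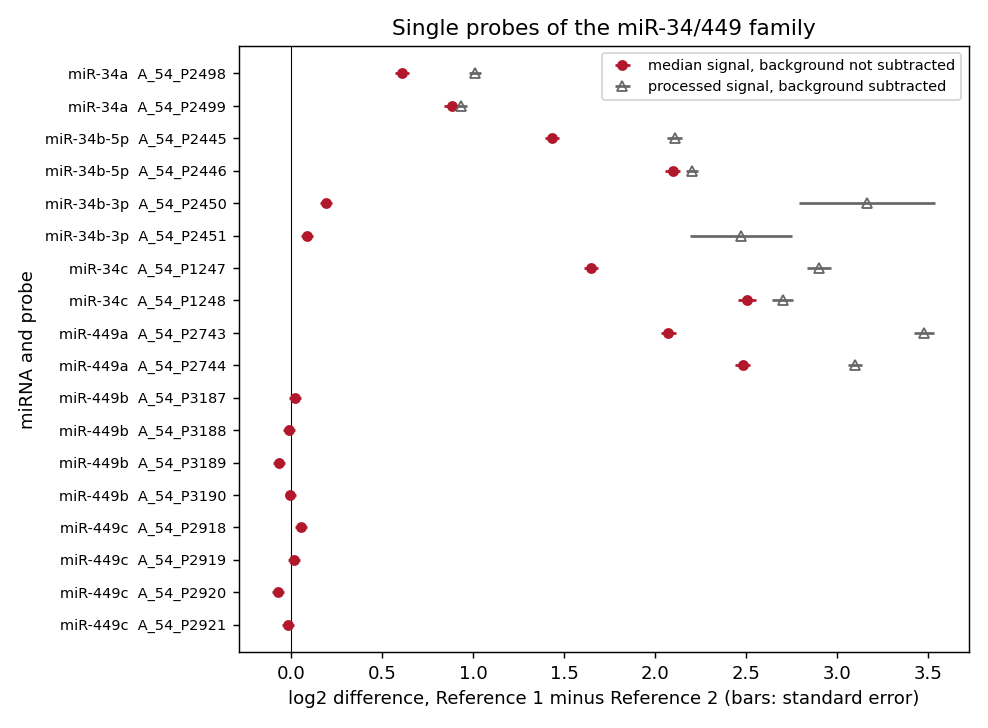
Log2 difference, Reference 1 minus Reference 2 (horizontal axis, bars are the standard error of the fit), of the 18 single probes of the family, from median signal without background subtraction (red circles) and from processed signal (gray triangles, 10 probes with a value). The red values of miR-34c are 1.65 and 2.50 and its gray values 2.90 and 2.70, and the 8 probes of miR-449b and miR-449c lie near 0.

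Similarity of values over the 4 arrays was measured by Euclidean distance on normalized log2 signal, as a description over 4 samples. This distance takes in the level of the signal as well as the difference between the references. Levels from different probes are not on a common scale, so a short distance does not by itself mean shared expression. Within the family, miR-34c and miR-449a lay 0.505 apart and miR-34b-5p and miR-34c 0.762 apart, and each of these 3 was closer to another of them than to any miRNA outside the family. miR-34a lay 1.07 from miR-34b-5p, its nearest member. Outside the family, the nearest miRNAs to miR-34a were miR-199b* (distance 0.286), miR-92a (0.300) and let-7e (0.377), with log2 differences of 0.72, 0.61 and 0.68. The bright members of the clusters had no neighbor outside the family as close. For miR-34b-5p the nearest outside it were miR-20a (0.881), miR-199b* (1.06) and let-7e (1.23). For miR-34c the nearest non-members were miR-20a (1.08), miR-199a-5p (1.23) and miR-10b (1.37). For miR-449a the nearest non-members were miR-199a-5p (0.925), miR-10b (1.24) and miR-20a (1.35). Those miRNAs had log2 differences of 1.03 (miR-20a), 1.42 (miR-199a-5p) and 3.39 (miR-10b). miR-34b-3p had closer non-member neighbors at low signal, first miR-369-5p (0.0751), miR-136 (0.0900) and miR-467e (0.101).

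Other miRNAs linked to p53 did not all share the direction of miR-34a. Of 7 such miRNAs, 3 were higher in Reference 1 and 4 lower, with a median log2 difference of -0.15. Among all mouse miRNAs, 29.9% were higher and 28.3% lower. The largest differences were those of miR-192, which is abundant in liver, at -2.14, and of miR-194, which is made with it, at -0.85. The smallest were those of miR-143 at -0.15 and miR-16 at 0.16. miR-34a, at 0.72, lay on the side of the 3 that were higher.

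The X-linked testis miRNAs, which lie in clusters on the X chromosome and are known from male germ cells, moved in the direction of the family. Their median log2 difference was 0.38, with 22 of 29 higher and 1 lower, against 29.9% higher and 28.3% lower of all mouse miRNAs. Of these, 4 of those higher and the lower one had no array with a signal well above background. The 2 with the largest differences were miR-883a-3p at 1.79 and miR-465a-3p at 1.60, and the 2 with the smallest were miR-881* at 0.00 and miR-465b-5p at 0.00. Of the 29, 18 were well above background in Reference 1 only, and none was so in Reference 2. In contrast, miR-34a, miR-34b-5p, miR-34c and miR-449a were well above background in both references. The part of lung cilia or of any other tissue of Reference 2 in that signal was not tested, and no other list for multiciliated cells was used.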

How the data were processed

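Total RNA of the references was labelled in one color and hybridized to Agilent mouse miRNA arrays. The authors' scanner files hold spot intensity, not yet normalized, from Agilent Feature Extraction 9.5.3.1 (per the submitters' processing notes). More arrays had been hybridized. Per the study's methods, an array with a very poor signal did not pass quality control, and those kept were a random choice. The deposited log2 values, with cyclic lowess by the authors, held all 7 members and correlated at 0.999 or above with the recomputed values. Here, the log2 median signal without background subtraction was normalized by cyclic lowess over 11540 non-control spots of each of the 4 arrays. The spot median of each miRNA was tested with limma 3.58.1 (R 4.3.3, intensity trend) and Benjamini-Hochberg adjustment over 566 mouse miRNAs. A miRNA was well above background in a reference where at least 0.5 of the spots of any of its probes were so on either array. No spot was saturated. The number of arrays limits the precision.

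The members and lists were chosen with earlier results of these data known. Named were all members, partner arms, up to 2 largest and 2 smallest differences of a list, and the 3 nearest miRNAs of each detected member. Scripts were tested on simulated data. Alternatives covered normalization, background, summary of probes, flagged spots, filters, the trend, the replicate block, the deposited values and leaving out each array. Exiqon, LC Sciences and NCode values carry probe numbers that were not matched to names here, and TaqMan data were not analysed here.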

Additional observations from a re-analysis of the deposited data

How the results depend on the processing

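The 5 higher members were called under all 18 alternatives except with outlier-flagged spots left out, where 4 were called and miR-34a missed the threshold. The log2 difference of miR-34a ranged from 0.65 to 1.52, that of miR-34b-5p from 1.61 to 2.74, that of miR-34c from 1.87 to 3.34 and that of miR-449a from 2.12 to 3.73, each highest with the processed signal scaled over all probes. The gap of miR-449a over miR-34c ranged from 0.06 to 0.48 and stayed above 0. That of miR-34b-3p, near background, ranged from 0.09 to 5.58, the latter with the total gene signal. miR-449c, at 0.01, turned to -0.0623 where arrays were centered on their medians, to -0.0226 without any normalization and to -0.0037 as the mean of probe medians, and the cause was not tested. Median centering also gave 2 lower members, miR-449b and miR-449c, where the main setting gave 0. Both gave no value with processed or total gene signal, nor under the filters on background.

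Of all mouse miRNAs, 169 were higher and 160 lower. Median centering gave 178 and 320, no normalization 164 and 73, the processed signal 143 and 80 (percentile over detected probes) or 184 and 57 (over all probes, where the median of 354 tested miRNAs was 0.90), and the total gene signal, with 216 tested, 88 and 83. Leaving out an array gave 5 higher members each time, 153 to 167 higher and 129 to 155 lower miRNAs.

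Same-numbered arrays deviated together with a correlation of 0.0612, so the numbers were not taken to pair them. With a replicate block, 5 members were higher, and 170 miRNAs were higher and 158 lower. Signals near the negative controls limit what miR-34b-3p, miR-449b and miR-449c can show.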
